A study of Drosophila melanogaster with 6 samples.

Results

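The genes examined here carry the insulin signal of the fly from the receptor at the cell surface to the transcription factor foxo: ImpL2, InR, chico, Lnk, Pi3K21B, Pi3K92E, Pdk1, Akt and foxo. A peak of the m6A-CLIP lists was given to one of these 9 genes when its midpoint lay in the gene's RefSeq span, introns included. This selected 48 peaks of 28206, with 23 of 14329 in replicate 1, 16 of 7232 in replicate 2 and 9 of 6645 in replicate 3. All but 1 of them lay in no other protein-coding span.

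The libraries were made from heads of Drosophila melanogaster of the w1118cs genotype, males and females together, kept at 25 °C on a standard diet. About 800 heads made a sample, and all samples shared this genotype and diet. RNA was fragmented after poly(A) selection, bound by an antibody against N6-methyladenosine (m6A, a methyl mark on adenosines within RNA), crosslinked to it by ultraviolet light and recovered (3 CLIP libraries), and 3 input libraries were sequenced beside them. Each deposited peak list belongs to 1 CLIP library and 1 input library, so there are 3 replicates of a single condition and no treated group. The labels give the cell type as neurons and the tissue as whole heads. Of 7 marker genes looked up in the lists, those of neurons (elav, nSyb and Syt1), photoreceptors (ninaE), glia (repo), fat body (apolpp) and muscle (Mhc), all had a peak in replicates 1 and 2 and all but elav in replicate 3. The lists thus held marker genes of neurons and of other cells of the head. Over all protein-coding genes, 27.3%, 17.6% and 16.9% had a peak in replicates 1, 2 and 3. The number of marker peaks differed between replicates. In the same order, Syt1 had 27, 21 and 8 peaks and elav had 2, 1 and 0. In contrast, apolpp had 9, 24 and 50 and Mhc had 19, 29 and 35. nSyb had 10, 13 and 11, ninaE 4 in each and repo 1 in each. The cause of these differences was not tested.

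In this pathway, insulin-like peptides bind the receptor tyrosine kinase InR, which acts through the adaptors chico and Lnk on phosphoinositide 3-kinase. The lipid that this kinase makes brings Pdk1 and Akt to the membrane, where Pdk1 phosphorylates Akt. Active Akt phosphorylates foxo and holds it out of the nucleus, so that foxo switches on its targets, InR among them, when insulin signalling is low. ImpL2 is a secreted protein that binds insulin-like peptides and dampens the signal.

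Peaks recurred in every replicate at InR, Lnk, Pdk1 and foxo, and at no other gene of the 9. Pi3K21B had a peak in replicates 1 and 2, ImpL2 and Akt only in replicate 1, chico only in replicate 2, and Pi3K92E had none. By list, 7, 6 and 4 of the 9 genes had a peak in replicates 1, 2 and 3, against 27.3%, 17.6% and 16.9% of all 13922 protein-coding genes. A peak in at least 1 list was found for 8 of 9 genes against 29.3% of all genes, and a peak in all 3 lists for 4 of 9 against 13.7%. Long spans hold peaks more often. In spans of 20 kb or more, 64.5% of all genes had a peak in all 3 lists, and so did both InR and foxo. In spans from 10 to 20 kb the share was 38.2%, with Pdk1 called and ImpL2 not. In spans from 5 to 10 kb it was 19.5%, and none of Pi3K21B, Pi3K92E and Akt was called. In spans under 5 kb it was 5.64%, with Lnk called and chico not. Their spans of 4.73 and 4.57 kb lie at the upper end of this class, which takes in all shorter genes. A share for genes of their own length was not taken. With so few genes per class no difference from other genes was tested.

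**Figure D1:**
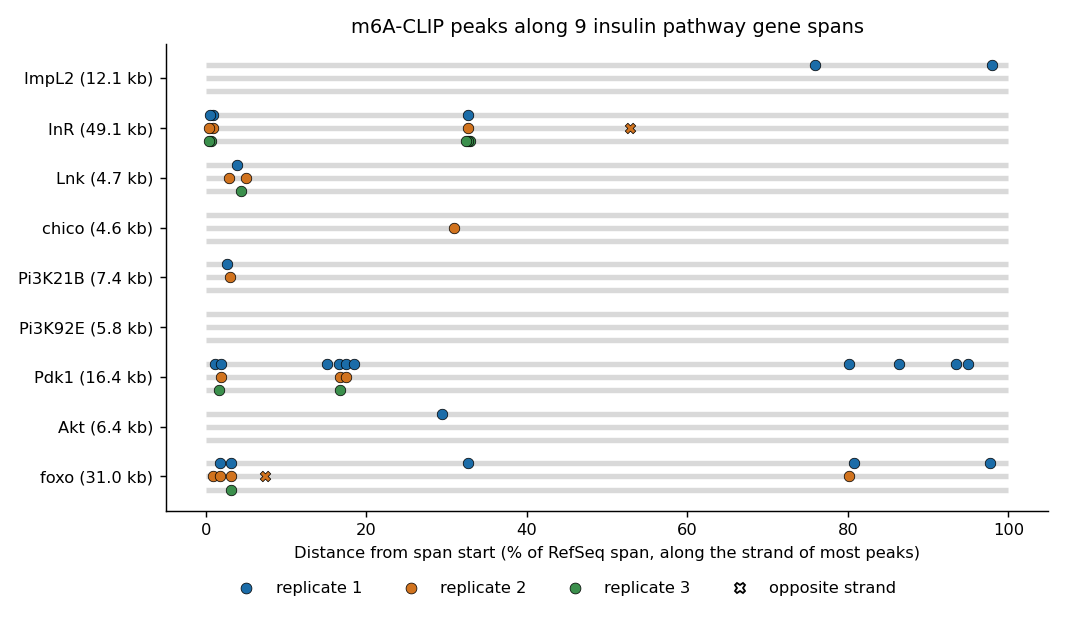
Peaks of the 9 genes, each at its distance from the span start in percent of the span (x axis), with 1 grey line per replicate and gene (y axis); circles lie on the strand of most peaks of the gene and crosses on the opposite strand. Replicates line up near the start of InR, Lnk, Pi3K21B, Pdk1 and foxo, and the late peaks of Pdk1 are in replicate 1 only.

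The reads of a peak are given as the authors deposited them, as CLIP reads per bin of 50 bp, averaged over the bins of the peak and not scaled to library size. Over all peaks the median was 10, 38 and 10 CLIP reads per bin in replicates 1, 2 and 3 and the lowest value 7, 25 and 7, so reads of different replicates are not on 1 scale. Input reads per bin were recovered from a natural log and are a geometric mean over bins in peaks of several bins, with medians of 8, 13 and 14. Whether 1 read was added before the log is not known, so an input of 1 may stand for no read. The reference used has no strand for a gene. Distances are therefore from the span end where transcription on the strand of the peak would enter the span, which is the outermost annotated start and not that of every transcript. The lists differ in their read minimum and hold nothing outside peaks, so the lack of a peak does not show that a gene lacks m6A.

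Among the secreted ligand binders, ImpL2 (gene 38513, on 3L from 4224006 to 4236147) had 2 peaks, both on the minus strand and both in replicate 1 only. The peak at 4224201 to 4224300 held 9 CLIP reads per bin against 3.46 input reads and lay 11.9 kb from the span start, close to its far end at 98.0% of the span. The peak at 4226901 to 4226950 held 11 CLIP reads against 9 input reads at 76.0% of the span. It also lay in the span of CG46460, a gene nested in ImpL2, so its reads cannot be given to ImpL2 alone.

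InR (gene 42549, on 3R from 21570248 to 21619321, a span of 49.1 kb) had 12 peaks, 11 of them on the minus strand and in 2 places. The place at the start of the span had its centre 320 bp from it. There replicate 1 had 12 CLIP reads per bin against 3.94 input reads at 21619001 to 21619200, and 11.3 against 3.56 at 21618801 to 21618950. Replicate 2 had 46.7 against 4.38 at 21619051 to 21619200 and 28 against 4.36 at 21618801 to 21619000. Replicate 3 had 10.5 against 3.46 at 21619101 to 21619200 and 9 against 4 at 21619001 to 21619050. CLIP reads were above input in each of these 6 peaks, and those of replicate 3 lay only between 21619001 and 21619200.

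The other place in InR lay 16.0 kb from the span start, at 32.6% of the span. The interval from 21603151 to 21603450 was called with the same ends in replicates 1 and 2, where 13.5 and 46.2 CLIP reads per bin stood over 4.04 and 4.09 input reads. Replicate 3 had 3 separate peaks inside this interval, with 7 against 5 at 21603151 to 21603200, 8.5 against 2 at 21603251 to 21603350 and 7 against 6 at 21603401 to 21603450. In all, 81, 277 and 31 CLIP reads lay in the called bins of this place, which numbered 6, 6 and 4 in replicates 1, 2 and 3. At the start of the span the sums were 82, 252 and 30 reads over 7, 7 and 3 bins. Sums over called bins were thus close between the places in each replicate, while reads outside peaks are not known. Per called bin there were 13.5, 46.2 and 7.75 reads at 16.0 kb and 11.7, 36 and 10 at the start.

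A single InR peak lay on the plus strand, at 21593351 to 21593400 and in replicate 2 only. It held 206 CLIP reads against 12 input reads, more per bin than any other peak of the 9 genes and more than 95.5% of the peaks of that list. Its midpoint lies in the span of lncRNA:Irar, a non-coding gene within InR, so the reads at this bin cannot be given to InR.

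Of the adaptors, Lnk (gene 43130, on 3R from 25888542 to 25893270), an SH2B family protein that binds the activated receptor, had all of its 4 peaks on the plus strand within a stretch of 150 bp, at 2.82% to 4.94% of the span. Replicate 1 had 18 CLIP reads per bin against 2.47 input reads at 25888651 to 25888800. Replicate 2 had 33 against 4 at 25888651 to 25888700 and 36 against 4 at 25888751 to 25888800. Replicate 3 had 7.5 against 4.24 at 25888701 to 25888800. Replicate 1 stood high here among its own peaks, of which 84.4% had fewer CLIP reads, while the shares were 35.2% and 43.8% for the peaks of replicate 2 and 18.1% for that of replicate 3.

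The adaptor chico (gene 64880, on 2L from 10242512 to 10247078), the insulin receptor substrate of the fly, had 1 peak, on the plus strand at 10243901 to 10243950 and in replicate 2. It held 133 CLIP reads against 224 input reads, which makes it 1 of only 2 peaks of replicate 2 in these genes with fewer CLIP than input reads. Its ratio was lower than that of all but 5.46% of the list. The bin also lies in the span of asRNA:CR44995, a non-coding RNA gene named as antisense, and the reference gives no strand to tell them apart. Within 1000 bp above the span of chico, 3 peaks of replicate 1 lay on the minus strand in the span of bsk and were not counted for chico.

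The lipid kinase is built from Pi3K21B, the adaptor subunit, and Pi3K92E, the catalytic subunit. Pi3K21B (gene 33203, on 2L from 297880 to 305233) had peaks at the same place in replicates 1 and 2, on the plus strand 196 and 220 bp from the span start. Replicate 1 held 15.3 CLIP reads per bin against 3.63 input reads at 298001 to 298150, and replicate 2 held 30 against 3 at 298051 to 298150. Replicate 3 had no peak there. Beyond the far end of the span, by 942 to 992 bp, all 3 replicates had a plus-strand peak between 306051 and 306300, at 15.6, 37 and 8 CLIP reads per bin, where the input had 5.39, 6.50 and 3. Those peaks lie in the span of Plc21C and were not counted for Pi3K21B. Pi3K92E (gene 42446, on 3R from 20628972 to 20634732) had no peak in any replicate, nor within 1000 bp on either side.

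Pdk1 (gene 38017, on 3L from 129450 to 145895), the kinase that activates Akt, had 15 peaks, the most of the 9 genes, and all were on the plus strand. Replicates 1, 2 and 3 had 10, 3 and 2 of them. Near the span start replicate 1 had 20.5 CLIP reads per bin against 5.92 input reads at 129701 to 129800, and 8 against 8 at 129601 to 129650. Replicate 2 had 43.5 against 4 at 129701 to 129800 and replicate 3 had 11 against 6 at 129701 to 129750. The bin from 129701 to 129750 was thus called in each replicate, within peaks whose mean CLIP reads were above input.

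A further group of Pdk1 peaks lay 2.48 to 3.03 kb from the span start. At 132101 to 132250 replicate 1 had 14.3 CLIP reads per bin against 4.16 input reads, and at 132151 to 132250 replicate 2 had 34 against 7.48 and replicate 3 had 8 against 5.48. The bin from 132301 to 132350 was called in replicates 1 and 2, with 32 reads against 12 and 26 against 7. Replicate 1 alone had peaks at 131901 to 131950, with 7 against 11, and at 132451 to 132500, with 12 against 2. By mean reads per bin, the peak at 132301 was the highest of the gene in replicate 1, where the median peak has 10 reads. It was the lowest of the gene's peaks in replicate 2, where the median peak has 38.

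From 80.1% of the Pdk1 span onward there were 4 peaks, all in replicate 1 and at 7 to 10 CLIP reads per bin, where the read minimum of that list is 7. They held 7 CLIP reads against 5 input reads at 142601 to 142650, 10 against 11.0 at 143601 to 143700, 8 against 7 at 144801 to 144850 and 7 against 6 at 145051 to 145100. None had more CLIP reads than the list median of 10.

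Akt (gene 41957, on 3R from 16099228 to 16105670), the kinase that phosphorylates foxo, had 1 peak, in replicate 1 on the plus strand at 16101101 to 16101150. It held 8 CLIP reads, 1 above the lowest value of the list, against an input of 1, and lay 1898 bp from the span start.

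foxo (gene 41709, on 3R from 14056945 to 14087978), the transcription factor at the end of the pathway, had 11 peaks, 10 of them on the plus strand. The stretch from 14057801 to 14058050 was called in every replicate at about 980 bp from the span start. It held 23.8 CLIP reads per bin against 4.98 input reads in replicate 1, 48.6 against 4.64 in replicate 2 and, to 14058000, 12 against 4.12 in replicate 3. In each list more than 60% of peaks had fewer CLIP reads, at 90.8%, 67.1% and 62.5%. Closer to the start, replicate 1 had 10.5 against 2 at 14057451 to 14057550 and replicate 2 had 37 against 3 at 14057451 to 14057500. Replicate 2 alone had 27 against 6 at 14057201 to 14057250.

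The other foxo peaks were each seen in 1 replicate. Replicate 1 had 7 CLIP reads against 2 input reads at 14067051 to 14067100, 9 against 2 at 14082001 to 14082050 and 10 against 2 at 14087251 to 14087300, the last of them at 97.7% of the span. Replicate 2 had 27 against 349 at 14081801 to 14081850, a ratio lower than that of all but 0.608% of its list. On the minus strand replicate 2 had 81 against 5 at 14059201 to 14059250, where no other gene span was annotated. These single-replicate calls include both the highest and the lowest CLIP to input ratio of the gene.

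**Figure D2:**
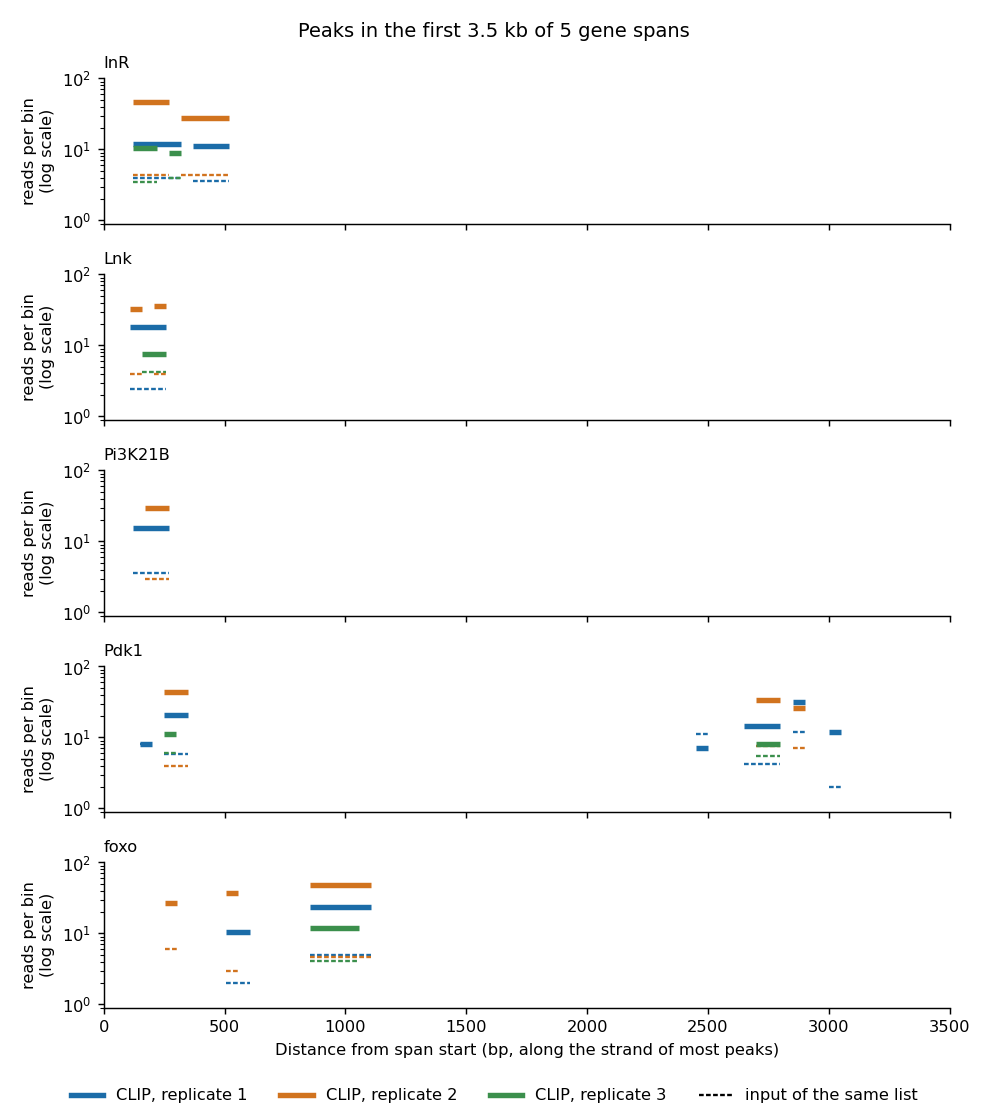
CLIP reads per bin (thick lines) and input reads per bin (dashed lines) are on a log y axis. The x axis is the distance from the span start in bp. Peaks of InR, Lnk, Pi3K21B, Pdk1 and foxo on the strand of most peaks are shown for the first 3.5 kb, coloured by replicate. The minus-strand peak of foxo in this range (81 against 5 reads in replicate 2) is not drawn. Most peaks stack at the same distances as those of another replicate, while some of Pdk1 and foxo are of 1 replicate only. CLIP reads stand above input except in the 7 against 11 reads and the 8 against 8 reads of replicate 1 in Pdk1.

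When peaks within 50 bp of each other were joined, 6 stretches were called in all 3 lists, and 4 of them lay within 1000 bp of the span start, while those of InR at 16.0 kb and of Pdk1 at 2.78 kb lay farther in. Of all peaks of the 9 genes in replicates 1, 2 and 3, 8 of 22, 9 of 16 and 5 of 9 peaks (36.4%, 56.2% and 55.6%) lay within that distance, leaving out the peak shared with CG46460. Among all peaks in a single protein-coding span of at least 4567 bp, the length of the shortest of the 9, these shares were 25.4%, 32% and 31.2%. Between 4 and 5 genes gave the near peaks of a list (InR, Lnk, Pi3K21B, Pdk1 and foxo), and several peaks come from 1 place, so they are not independent and no test was made. The distance of 1000 bp was chosen after the values were seen.

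The next comparison asked how many of these peaks were called again in another replicate, counting an overlap from 1 bp upward and only within a strand. Of the 23 peaks of replicate 1, 10 were met by replicate 2 (43.5%, exact 95% interval 23.2 to 65.5) and 6 by replicate 3 (26.1%, 10.2 to 48.4), against 33.2% and 28.4% of its peaks in all protein-coding spans. Of the 16 peaks of replicate 2, 11 were met by replicate 1 (68.8%, 41.3 to 89.0) and 6 by replicate 3 (37.5%, 15.2 to 64.6), against 82.1% and 59.1%. Of the 9 peaks of replicate 3, all were met by replicate 1 (100%, 66.4 to 100) and 8 by replicate 2 (88.9%, 51.8 to 99.7), against 82.2% and 69.6%. Each of these intervals holds the share of the same list's peaks in all protein-coding spans. The intervals cover counting error only and take peaks as independent. Several peaks come from 1 place, so they are not independent and a difference from other genes was not tested. Replicate 1 had 13 peaks met by neither other list, of which Pdk1 gave the most.

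The 6 stretches called in all 3 lists were both places in InR, both in Pdk1 and 1 each in Lnk and foxo. The CLIP to input ratio was taken within a list, on the log2 scale and after 1 was added to the reads of both. Over several bins CLIP is an arithmetic and input a geometric mean, which can raise the ratio. Peaks of 1 bin, where both means are the same, made up 60.9%, 59.5% and 64.5% of the lists of replicates 1, 2 and 3. The size of this effect was not tested. The median ratio of the list was then subtracted, which was 0.17, 1.58 and −0.42 in replicates 1, 2 and 3. Values are therefore differences from the median peak on the log2 scale.

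All 6 stretches were above the median peak in every replicate. They were chosen for being called in every list, while the median is over all peaks of a list, recurrent or not. No comparison with other recurrent peaks was made, so the part of this choice in the values was not tested. foxo stood 1.88, 1.55 and 1.76 above the median peak in replicates 1, 2 and 3 (mean 1.73 ± 0.17, SD, n = 3). Lnk stood 2.28, 1.24 and 1.11 above it (1.55 ± 0.64), with replicate 1 apart from the other two. InR stood 1.36, 1.63 and 1.44 above it at 16.0 kb from the start (1.47 ± 0.14) and 1.24, 1.20 and 1.66 at the start (1.37 ± 0.25). These InR values overlapped between the places.

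Pdk1 stood 1.03, 1.57 and 1.19 above the median peak at the span start (1.26 ± 0.28, n = 3) and 1.45, 0.37 and 0.89 at 2.78 kb (0.90 ± 0.54). With 3 lists the exact two-sided sign-flip permutation test cannot go below 0.25, and it gave 0.25 for each stretch, before and after adjustment over the 6. In the order foxo, Lnk, InR at 16.0 kb, InR at the start, Pdk1 at the start and Pdk1 at 2.78 kb, no neighbours differed by more than the SD of their difference. The ends of this order, foxo and Pdk1 at 2.78 kb, differed by 0.83 ± 0.38 (SD, n = 3). This pair was picked for its difference, so its size and direction are a description.

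**Figure D3:**
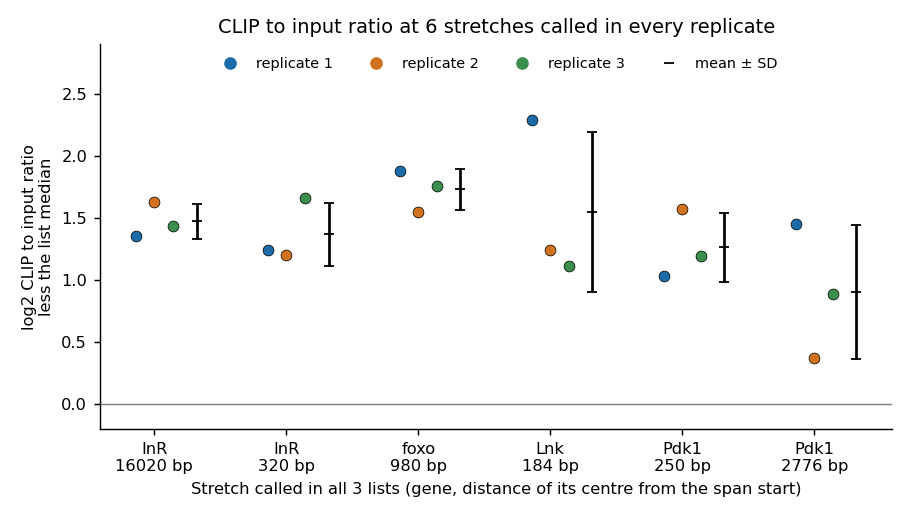
log2 CLIP to input ratio less the median of the list (y axis) at the 6 stretches called in all 3 lists (x axis, with the distance of each centre from the span start); points are replicates and bars the mean ± SD of 3. All points lie above 0, the median of all peaks of the list, recurrent or not. Against list peaks of similar input, only foxo and the first Pdk1 stretch exceeded the median CLIP reads in every replicate. The replicates of Lnk and of the second Pdk1 stretch spread the widest, with SDs of 0.64 and 0.54.

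Input reads are the lower part of these ratios, so a low input raises a ratio by construction. CLIP reads of the peaks of the 9 genes were close to those of the lists, with medians of 10.5, 36.5 and 8.5 per bin against 10, 38 and 10. Their input reads were lower, with medians of 4.04, 4.51 and 4.24 against 8, 13 and 14. CLIP reads were above input in 20 of 23, 14 of 16 and 9 of 9 peaks, against 53.5%, 83.4% and 44.3% of peaks in all protein-coding spans, and the ratio was above the list median in 19, 14 and 9 peaks, against 49.7%, 51.1% and 51.6%. In a comparison added after the values were seen, with peaks of the same list with 0.8 to 1.25 times their input as the reference, 13 of 23, 7 of 16 and 3 of 9 peaks had more CLIP reads than the median. At like input, fewer than 50% of the peaks in replicates 2 and 3 thus exceeded that median. Only the foxo stretch and the Pdk1 stretch at the span start were above the median at like input in every replicate, with 92.6%, 65.1% and 62.8% of such peaks below foxo and 88.2%, 57.5% and 57.8% below Pdk1.

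**Figure D4:**
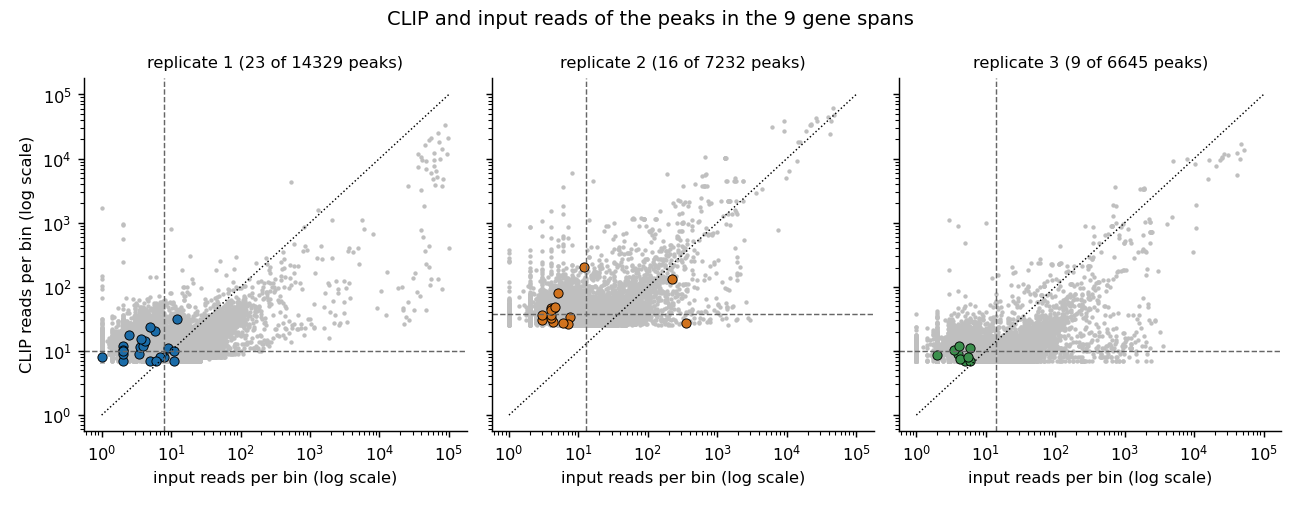
CLIP reads per bin (y axis) against input reads per bin (x axis), both on log scales, for all peaks of a replicate (grey) and those of the 9 genes (coloured); dashed lines are the medians of the list and the dotted line marks equal reads. The coloured points lie around the CLIP median and mostly left of the input median. The peaks of chico (224 input reads) and foxo (349) in replicate 2 lie farthest to the right.

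Position in the span moved with the ratio, for all genes. In protein-coding spans of at least 4567 bp, the median log2 ratio of all peaks within 1000 bp of the span start was 1.58, 2.87 and 1.21 in replicates 1, 2 and 3, against 0.09, 1.58 and −0.24 farther in. Their median input was 3.74, 5 and 4 reads per bin against 8.88, 12 and 12. The peaks of the 9 genes had medians of 1.73, 2.95 and 1.00 near the start and 1.38, 2.04 and 0.44 farther in. In the 9 genes, as in all, the median was higher near the start in each list. The part of input reads and of position in the ratios of these genes was not tested.

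Of 26 other genes of insulin signalling, 15 had a peak in at least 1 list and 10 in all 3, against the 29.3% and 13.7% of all genes given above. Those with a peak in all 3 lists were Ilp6, Ptp61F, dock, wdb, mts, S6k, Thor, sgg, 14-3-3epsilon and 14-3-3zeta. They had between 3 peaks over the lists, at dock, and 44, at sgg. The shares of all genes are not matched for span length. Ptp61F, sgg and wdb have spans of 132.8, 45.6 and 20.6 kb, and 64.5% of all genes of 20 kb or more had a peak in all 3 lists. The others named have spans from 1.18 kb, at Thor, to 13.4 kb, at S6k. Whether the 26 genes differ from genes of like length was not tested. The 8 peaks in Ilp6 all lie in the span of Raf too, and 13 of the 24 peaks in Ptp61F lie in other protein-coding spans. Counting only peaks in no other span leaves Ptp61F with peaks in 2 lists and Ilp6 with none, and so 8 of the 26 genes in all 3 lists.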

How the data were processed

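The 3 deposited peak lists were used, each from 1 CLIP and 1 input library. Reads were of 151 nt, and STAR 2.7.5a and the builds dm6 and BDGP6 are named in the submitters' processing notes. The peak caller and its thresholds are not given in the sources used here. The deposited signal (coverage) is CLIP reads per bin of 50 bp, since its product with the number of bins was whole within a tolerance of 0.01 per bin in 99.9% to 100% of peaks. The deposited natural log is that of input reads per bin. That the first holds CLIP and the second input reads was inferred from the labels. The deposited p-value of a peak was used only to rank peaks. Library totals were not used here, so depth is unknown and reads were not scaled.

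Gene spans came from the RefSeq table of Release 6 plus ISO1 MT, and all 9 genes and all 26 others were found in it by symbol. The table has no exons, strand or sequence, so exons, motifs and sequences of peaks were not used here. Genes named in the text were the 9 members, those of the 26 with a peak in all 3 lists, and genes sharing a peak; 1 result of the wider list is not reported here. Markers and neighbouring genes were named after their values were seen. The members and lists were chosen with earlier results of these data known. The labels call the samples biological replicates, with no more said of their source. Assignment, overlap and the permutation test were tested on simulated data. Python 3.11.15, pandas 2.3.3 and scipy 1.17.1 were used. Alternatives covered the assignment, list length, strand, overlap, joining of peaks, pseudocount, reference median, replicate block and each replicate.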

Additional observations from a re-analysis of the deposited data

How the results depend on the processing

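Of 109 recomputed values, 100 kept their direction or stayed within the limits set, and 9 moved. The values counted as kept include a share that fell from 37.5% to 16.7% and 1 that fell from 88.9% to 55.6%. The count therefore does not show that values stayed close. All but 1 of the 9 that moved came from ranking the peaks of a list by p-value and keeping the better 50%, which shortens lists by construction. It left 15, 6 and 1 peaks in the 9 genes in replicates 1, 2 and 3. It left 1 gene with a peak in replicate 3 and so 1 gene, Pdk1, in all 3 lists, against 4. Replicate 1 was then met by replicate 2 in 20.0% and by replicate 3 in 6.67% of peaks, replicate 2 was met by replicate 3 in 16.7% against 37.5%, and the single peak left in replicate 3 was met by replicate 2 (100%). Requiring 50% of both peaks to be shared lowered the share of replicate 3 met by replicate 1 from 100% to 55.6% and that met by replicate 2 from 88.9% to 55.6%. Equal list lengths left 4 genes in all 3 lists, and leaving out a replicate gave 4 to 5.

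The 6 stretches stayed above the median peak in each of 7 alternatives, from 0.63 (Pdk1 at 2.78 kb, without replicate 1) to 1.83 (foxo, with 0.5 added to reads). None of these alternatives took other recurrent peaks as the reference. Each ratio pairs CLIP and input named with the same list. With no replicate block, that is with input averaged over the lists, the values were 1.47, 1.37, 1.73, 1.55, 1.27 and 0.91 for the InR pair, foxo, Lnk and the Pdk1 pair, nearly fixed by construction. At 644 intervals with identical ends, deviations of same-numbered CLIP and input libraries correlated at 0.19, 0.01 and 0.19. Those of unlike numbers correlated at −0.23 to 0.12. The same-numbered input had the highest correlation for the CLIP libraries of replicates 1 and 3 but not of replicate 2. The numbers were thus not shown to pair libraries beyond the shared list.

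Chosen after the values were seen were the use of only those peaks that hold bins called in all 3 lists, which is among the 7 alternatives, and other distances from the span start. Within 500 bp lay 6, 7 and 4 peaks of the 9 genes in replicates 1, 2 and 3, and within 2000 bp 9, 10 and 5. The median peak of the 9 genes had 10.5 and 8.5 CLIP reads per bin in replicates 1 and 3, so counting error limits each ratio.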
